A study of Mus musculus with 6 samples.

Results

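The acetylcholine receptor and neuromuscular junction genes are 10 genes of the muscle side of the synapse between motor nerve and muscle fibre, taken by name from the 35976 genes of each library. They are the receptor subunits Chrna1, Chrnb1, Chrnd, Chrng and Chrne, the agrin pathway genes Agrn, Lrp4, Musk and Dok7, and the anchor Rapsn. The libraries held total RNA of mouse satellite cells, the stem cells of skeletal muscle, kept for 4 days in growth medium. The 3 NF-YA cKO libraries came from NF-YA fl/fl;Pax7-CreERT2 mice, and the 3 NF-YA fl/fl libraries came from mice with the same floxed alleles and no Cre. Both genotypes received tamoxifen, by the methods of the study as 5 daily injections of 0.1 mg per g of body weight followed by 7 days of waiting. The labels give an age of 5 to 7 weeks, while the methods give male mice of 6 to 8 weeks. NF-YA is the subunit of the CCAAT-binding factor NF-Y that carries sequence specificity, and the Cre was driven by Pax7, so that only cells with an active Pax7 gene could lose it. The comparison asks how synaptic muscle genes differed between the NF-YA cKO and the NF-YA fl/fl libraries.

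The muscle acetylcholine receptor is a pentamer with a pair of alpha subunits and 1 each of beta, delta and either gamma or epsilon. The gamma subunit (Chrng) belongs to embryonic and denervated muscle and is replaced by epsilon (Chrne) in mature innervated fibres. At the synapse, agrin binds the receptor LRP4, which activates the kinase MuSK, and MuSK, held active by DOK7, drives rapsyn (Rapsn) to anchor and cluster the receptors.

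The 6 libraries held between 26936230 and 41118984 expected counts. The Nfya entry with the deletion took 22.3% to 34.2% of the Nfya counts in NF-YA cKO and 0 counts in NF-YA fl/fl. The remaining Nfya entries stood at 17.7 to 21.0 CPM (counts per 1e6 counts, after scaling of library sizes) in NF-YA cKO, against 23.4 to 36.9 CPM in the controls. Xist lay at 835 to 852 CPM in NF-YA cKO but at 0.31 to 0.47 CPM in NF-YA fl/fl. The Y-linked Ddx3y lay at 0.05 to 0.10 CPM in NF-YA cKO and at 80.9 to 88.5 CPM in NF-YA fl/fl. By these genes the NF-YA cKO libraries read as female and the controls as male, whereas the methods give male mice. Hence the sex of the mice and their genotype cannot be told apart. Of 9 markers of differentiated muscle, all 9 were called lower, with a summed level of 620 to 1401 CPM in NF-YA cKO against 43470.4 to 52540.5 CPM. Over all tested genes, 7.67% were called lower and 4.65% higher. Of 10 macrophage markers 9 were called higher (summed 145 to 284 CPM against 5.87 to 15.9 CPM), and of 7 Schwann cell markers 5 were (79.1 to 87.8 CPM against 21.5 to 75.3 CPM). Satellite cell and myoblast markers summed to 1449 to 1630 CPM in NF-YA cKO and 2222 to 3875 CPM in NF-YA fl/fl, with 2 of 7 called lower (Cdh15 and Des) and a median log2 fold change of -0.08. Pax7 (0.94, edgeR FDR 0.00624) and Vcam1 (0.86, FDR 0.0101) had every NF-YA cKO library above every control library without being called. Itga7 (-1.25, FDR 0.0116) had every NF-YA cKO library below every control library, also without being called. The summed level of the fibro-adipogenic markers overlapped between genotypes (214 to 241 CPM against 55.3 to 334 CPM), with 0 of 5 called. Dcn had a log2 fold change of 1.71, at 68.2 to 76.2 CPM against 9.26 to 28.8 CPM. Ly6a (-2.05), Cd34 (-0.36), Pdgfra (-0.18) and Col15a1 (-0.03) lay below 0 with overlapping groups. Of 4 endothelial markers 1 was called higher. The part of these markers in the results below was not tested, and in bulk libraries fewer cells of a type and less RNA per cell cannot be told apart.

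The promoters shown are those of the 4 genes whose searched window held the word CAGCTG: Chrng, Chrna1, Musk and Chrne. They do not stand for the genes that changed. Chrng and Musk were called lower below, Chrna1 was not called and Chrne was not tested. Chrnb1, Agrn and Dok7 were searched too, did not hold that word and were not called. Each promoter shown is the 250 bases before the RefSeq start (GRCm38.p6), read 5′ to 3′ on the gene's strand. The gene intervals given further on are those of GENCODE, whose starts can differ, so that the Chrng window lies inside the Chrng interval and the Musk and Chrne windows overlap the edge of theirs. Capitals mark E-boxes (CANNTG, the words bound by myogenic helix-loop-helix factors) and, in Chrne, the N-box core CCGGAA bound by Ets factors.
Chrng, chr1:87205561-87205810, plus strand: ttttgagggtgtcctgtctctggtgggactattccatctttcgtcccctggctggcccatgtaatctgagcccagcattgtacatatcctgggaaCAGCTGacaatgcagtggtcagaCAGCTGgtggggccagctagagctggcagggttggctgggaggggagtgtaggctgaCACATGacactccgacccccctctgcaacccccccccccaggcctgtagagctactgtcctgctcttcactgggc
Chrna1, chr2:73580339-73580588, minus strand: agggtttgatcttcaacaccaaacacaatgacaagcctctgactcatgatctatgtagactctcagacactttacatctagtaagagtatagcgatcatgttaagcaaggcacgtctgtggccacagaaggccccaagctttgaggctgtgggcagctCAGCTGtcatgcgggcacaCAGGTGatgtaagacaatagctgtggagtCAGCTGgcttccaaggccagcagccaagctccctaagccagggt
Musk, chr4:58285712-58285961, plus strand: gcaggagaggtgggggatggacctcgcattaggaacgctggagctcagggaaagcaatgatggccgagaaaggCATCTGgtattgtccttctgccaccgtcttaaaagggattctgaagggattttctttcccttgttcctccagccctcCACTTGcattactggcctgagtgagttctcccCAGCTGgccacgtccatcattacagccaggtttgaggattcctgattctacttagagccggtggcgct
Chrne, chr11:70619195-70619444, minus strand: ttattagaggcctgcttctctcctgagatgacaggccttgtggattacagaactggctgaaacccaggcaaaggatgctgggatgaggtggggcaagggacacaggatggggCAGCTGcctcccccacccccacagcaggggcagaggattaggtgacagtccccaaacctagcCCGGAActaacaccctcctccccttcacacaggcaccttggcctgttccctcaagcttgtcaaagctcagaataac

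RefSeq windows were matched for 7 of the 10 genes, 9 windows in all, since Agrn and Dok7 each had a pair of starts. All 7 genes held an E-box in some window, but Agrn and Dok7 each also had a window with 0. Counted by single window, 66.2% of 32851 promoters of the same length held an E-box, a share not alike with the count by gene. Chrng, Chrna1, Musk and Chrnb1 each held 3 E-boxes in the window, a number reached or passed by 12.2% of promoters. The E-box CAGCTG, each match of which is also a CANNTG match, was present in 4 genes (Chrng, Chrna1, Musk and Chrne) and in 13.0% of promoters. Chrng held it at bases -155 and -132 from the start and Chrna1 at bases -92 and -44, and 1.26% of promoters held it more than once. CCGGAA, read on both strands, was found in Chrne only, at base -76, and in 12.03% of promoters. CCAAT, read on both strands, was in 0 of the 7 genes and in 33.8% of promoters. Chrnd, Lrp4 and Rapsn had no window and were not searched for any of these words. Of these, Chrnd and Lrp4 are among the genes called lower below. A match of letters is a description of the window and not of binding.

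Among the members, 9 passed the filter on low counts (more than 10 counts in at least 2 libraries), as did 17348 genes in all. A gene was called when its false discovery rate (FDR) was under 0.01 and its log2 fold change was beyond 1 in either direction. Chrng, Chrnd, Lrp4 and Musk were called lower in NF-YA cKO, 4 of the 9 tested, beside 7.67% of all tested genes. No member was called higher by edgeR (0 of 9), beside 4.65% of all tested genes, and 0 rose at an unadjusted p under 0.05 or were called by DESeq2 or limma. The 9 members had a median log2 fold change of -0.77, and all tested genes one of -0.02. Without NF-YA fl/fl replicate 3 these medians were -0.38 and 0.01. On TPM (transcripts per 1e6 transcripts, which accounts for length), 8 members had every NF-YA cKO library below every NF-YA fl/fl library, beside 25.2% of tested genes below and 18.8% above. On CPM, 5 members did so (Chrnb1, Chrnd, Chrng, Lrp4 and Musk), beside 26.2% of tested genes below and 29.1% above.

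**Figure D1:**
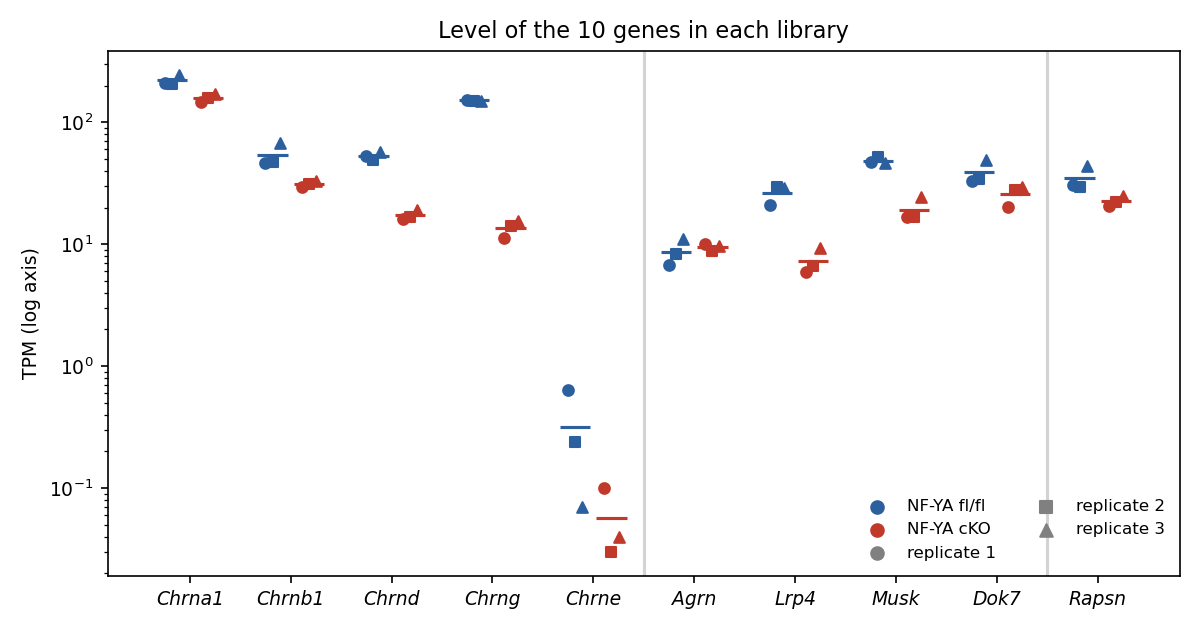
Level of each of the 10 genes in TPM on a log axis. Points are libraries (colour for genotype, shape for replicate) and horizontal lines are group means. The genotypes are farthest apart for Chrng among the tested genes and overlap for Agrn and Chrne.

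**Figure D2:**
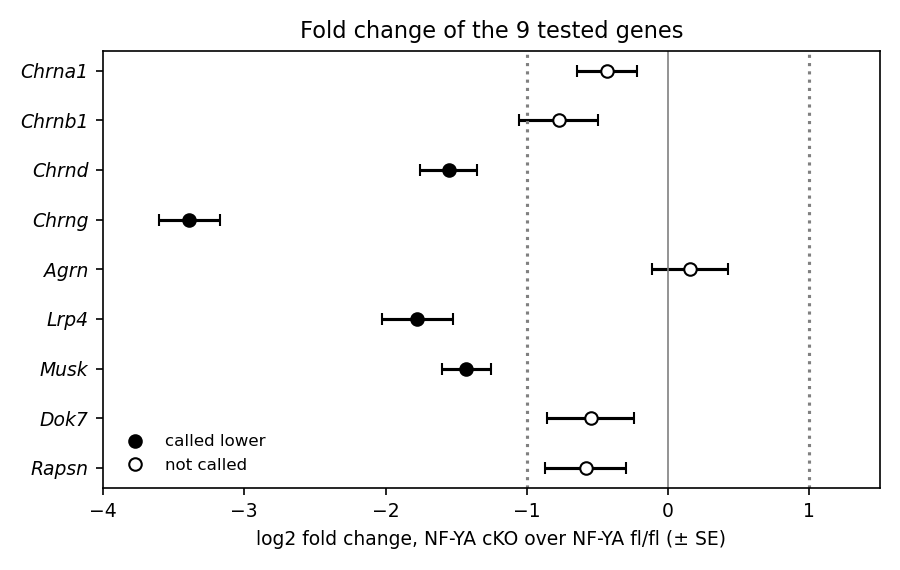
Log2 fold change of NF-YA cKO over NF-YA fl/fl for the 9 tested genes (points) with the standard error (bars). Dotted lines mark a log2 fold change of 1 in each direction, and filled points are the 4 genes called lower, from Chrng at -3.39 to Musk at -1.43.

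Among the receptor subunits, the embryonic gamma subunit fell most. Chrng (GRCm38 chromosome 1, 87204657 to 87212694, plus strand) stood at 11.3, 14.2 and 15.6 TPM in the NF-YA cKO libraries and at 154, 149 and 151 TPM in the NF-YA fl/fl libraries. On TPM the groups lay far apart, and the NF-YA fl/fl libraries were nearly level with each other. On CPM the NF-YA fl/fl libraries spread more, at 239, 189 and 283, against 17.3, 25.7 and 24.8 in NF-YA cKO. The mean in NF-YA cKO was 13.7 ± 2.19 TPM (SD, n = 3), which is 9.07% of the NF-YA fl/fl mean of 151 ± 2.33 TPM (SD, n = 3). In the edgeR quasi-likelihood test with Benjamini-Hochberg adjustment over all tested genes, Chrng had a log2 fold change of -3.39 ± 0.22 (SE), or 10.5-fold lower counts, with an FDR of 0.000161.

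Chrnd encodes the delta subunit and is the neighbour of Chrng, ending 4586 bases before it (chromosome 1, 87190607 to 87200070, plus strand). Its level was 16.3, 16.9 and 19.1 TPM in NF-YA cKO and 53.1, 49.0 and 57.0 TPM in NF-YA fl/fl. The genotypes did not overlap, and the gap was smaller than for Chrng. The log2 fold change was -1.55 ± 0.20 (SE, edgeR FDR 0.00186), 2.94-fold lower. Without NF-YA cKO replicate 1, 2 or 3 the FDR of Chrnd was 0.0102, 0.0120 and 0.0102, just past the threshold, with log2 fold changes of -1.49, -1.64 and -1.62.

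Chrna1, the alpha subunit that binds acetylcholine (chromosome 2, 73563215 to 73580338, minus strand), was the most abundant member in both genotypes by TPM. It measured 147, 158 and 169.9 TPM in NF-YA cKO and 211, 206 and 246 TPM in NF-YA fl/fl. All NF-YA cKO libraries lay below all NF-YA fl/fl libraries on TPM, but not on CPM, where they ranged from 538 to 681 against 627 to 1097. Its log2 fold change was -0.43 ± 0.21 (SE, edgeR FDR 0.154), and -0.19 without NF-YA fl/fl replicate 3. In NF-YA cKO its mean TPM still exceeded that of 97.0% of the tested genes, against 98.1% in NF-YA fl/fl, while Chrng went from above 97.1% to above 68.5%.

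Chrnb1 encodes the beta subunit (chromosome 11, 69784036 to 69795943, minus strand). Its level was 29.7, 31.3 and 33.0 TPM in NF-YA cKO and 46.8, 47.1 and 68.1 TPM in NF-YA fl/fl. NF-YA fl/fl replicate 3 was the highest, and the groups did not overlap. The log2 fold change of -0.77 ± 0.28 (SE) had an edgeR FDR of 0.0649 and was not called. It was -0.38 without NF-YA fl/fl replicate 3 and -0.99 without replicate 2.

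Chrne, the adult epsilon subunit (chromosome 11, 70614883 to 70619216, minus strand), was near absent in all libraries and did not pass the filter on low counts. It had 4, 2 and 2 counts in NF-YA cKO and 22, 9 and 3 counts in NF-YA fl/fl, most of the latter in replicate 1. These correspond to 0.10, 0.03 and 0.04 TPM against 0.64, 0.24 and 0.07 TPM, with overlapping groups. Summed over each genotype, 8 against 34 counts gave a ratio of 0.182 after scaling to library size, with an exact 95% counting interval of 0.0728 to 0.401 that covers counting error only and not the spread between libraries. When the filter was left out, its fitted log2 fold change was -2.40 ± 0.83 (SE, edgeR FDR 0.065), which was not called. Chrne overlaps 4930544D05Rik on the other strand, which had at most 7 counts in a library, and whether the counting used strand is not given in the sources used here.

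The embryonic subunit therefore outnumbered the adult one in every library of both genotypes. Chrne made up 0.731%, 0.187% and 0.189% of the Chrng and Chrne counts in NF-YA cKO (95% exact Clopper-Pearson intervals of 0.200 to 1.86%, 0.0227 to 0.675% and 0.0229 to 0.681%). In NF-YA fl/fl it made up 0.350%, 0.141% and 0.0360% (0.220 to 0.530%, 0.0645 to 0.268% and 0.00742 to 0.105%). The shares of the genotypes overlapped. With 0.1 TPM added to each gene, the log2 ratio of Chrng to Chrne was 6.48 ± 0.56 in NF-YA cKO and 8.76 ± 1.05 in NF-YA fl/fl (SD, n = 3 each; exact two-sided permutation p = 0.1, the smallest that 3 against 3 allows). This difference of -2.28 shrank to -1.31 without the added value and to -1.29 on CPM, with overlapping groups in both (exact permutation p = 0.4). Chrne was close to its floor in these libraries.

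The makeup of the receptor transcripts differed between genotypes. Chrng held 5.54%, 6.45% and 6.56% of the summed subunit TPM in NF-YA cKO and 33.0%, 33.0% and 28.8% in NF-YA fl/fl. Chrna1 held 71.5% to 71.9% in NF-YA cKO and 45.4% to 47.2% in NF-YA fl/fl. Chrnb1 held 13.9% to 14.5% against 10.05% to 13.0%, and Chrnd 7.63% to 8.03% against 10.8% to 11.4%. No share of these 4 subunits overlapped between genotypes, and as shares of 1 sum they are not independent of each other.

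**Figure D3:**
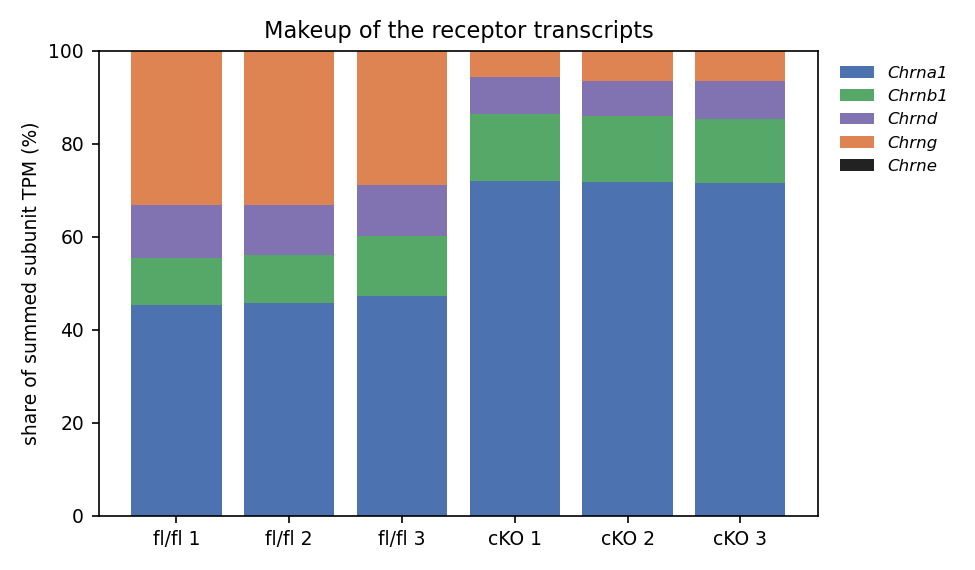
Share of each receptor subunit in the summed TPM of the 5 subunits, 1 bar per library. Chrng fills 28.8% to 33.0% of the NF-YA fl/fl bars and 5.54% to 6.56% of the NF-YA cKO bars, and Chrne is too small to see.

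Within a library, TPM of Chrng per TPM of Chrna1 was 0.0776 to 0.0924 in NF-YA cKO and 0.611 to 0.728 in NF-YA fl/fl. The log2 ratio differed by -2.99 for Chrng to Chrna1, by -2.70 for Chrng to Chrnb1 and by -1.86 for Chrng to Chrnd. Each had an exact two-sided permutation p of 0.1, also after adjustment over the 4 ratios including Chrng to Chrne, and 0.1 is the smallest possible. Chrng thus ran lower against each of these subunits in all 3 NF-YA cKO libraries. Chrna1 per Chrnd was 3.98 to 4.33 in NF-YA fl/fl and 8.90 to 9.40 in NF-YA cKO on TPM, and Chrna1 per Chrnb1 was 3.62 to 4.52 and 4.95 to 5.14.

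Of the agrin pathway genes, the receptor and the kinase fell and the ligand did not. Lrp4, the agrin receptor (chromosome 2, 91457511 to 91513779, plus strand), stood at 5.93, 6.59 and 9.37 TPM in NF-YA cKO and at 20.9, 29.7 and 29.2 TPM in NF-YA fl/fl. The groups did not overlap. Its log2 fold change was -1.78 ± 0.25 (SE, edgeR FDR 0.00251), 3.42-fold lower. Without NF-YA cKO replicate 2 the FDR was 0.0164 with a log2 fold change of -1.81.

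Musk, the receptor tyrosine kinase that starts receptor clustering (chromosome 4, 58285960 to 58374303, plus strand), stood at 16.7, 16.6 and 24.2 TPM in NF-YA cKO and at 47.6, 52.1 and 46.1 TPM in NF-YA fl/fl. NF-YA cKO replicate 3 was the highest of its group and still well below the lowest NF-YA fl/fl library. The log2 fold change was -1.43 ± 0.17 (SE, edgeR FDR 0.00155), 2.69-fold lower. Without NF-YA cKO replicate 2 the FDR was 0.0124 with a log2 fold change of -1.45. Of the 4 calls, Chrng alone passed the same thresholds without that library.

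Agrn, the ligand (chromosome 4, 156165290 to 156197488, minus strand), measured 10.1, 8.85 and 9.73 TPM in NF-YA cKO and 6.71, 8.31 and 11.1 TPM in NF-YA fl/fl. The NF-YA fl/fl libraries were spread on both sides of the NF-YA cKO libraries. The log2 fold change of 0.16 ± 0.27 (SE, edgeR FDR 0.668) rested on single libraries: it was -0.02 without NF-YA fl/fl replicate 1 or replicate 2 and 0.56 (FDR 0.00108) without replicate 3. Agrin of muscle and agrin of nerve differ by short exons, which these gene levels do not separate.

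Dok7, the adaptor that keeps MuSK active (chromosome 5, 35056766 to 35087839, plus strand), stood at 20.4, 27.8 and 29.6 TPM in NF-YA cKO and at 33.3, 34.3 and 49.4 TPM in NF-YA fl/fl. The groups were separate on TPM and overlapped on CPM (51.1 to 81.9 against 71.4 to 151). Its log2 fold change was -0.55 ± 0.31 (SE, edgeR FDR 0.201), and -0.16 without NF-YA fl/fl replicate 3.

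Rapsn, which encodes the scaffold that holds receptors in clusters (chromosome 2, 91035620 to 91045729, plus strand), stood at 20.8, 22.4 and 25.1 TPM in NF-YA cKO and at 30.5, 29.5 and 44.2 TPM in NF-YA fl/fl. NF-YA fl/fl replicate 3 was again the highest library. Its log2 fold change was -0.58 ± 0.29 (SE, edgeR FDR 0.151), and -0.19 without that library. On CPM NF-YA fl/fl replicate 3 was the highest of all 6 libraries for each of Chrna1, Chrnb1, Chrnd, Chrng, Lrp4, Musk, Dok7, Rapsn and Agrn, and for Myod1 as well (1145 CPM against 295 to 627 CPM in the other libraries). Without that library 4 members were still called lower and 0 higher.

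By mean TPM, the order in NF-YA fl/fl was Chrna1, Chrng, Chrnb1, Chrnd, Musk, Dok7, Rapsn, Lrp4, Agrn and Chrne. The libraries of Chrnb1 to Lrp4 overlapped from 1 neighbour to the next, and the other neighbours were separate. In NF-YA cKO the order was Chrna1, Chrnb1, Dok7, Rapsn, Musk, Chrnd, Chrng, Agrn, Lrp4 and Chrne, with overlap from Dok7 to Chrnd and between Agrn and Lrp4. Chrng went from the second to the seventh place, and Agrn passed Lrp4.

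The split between transcripts, an estimate that RSEM makes from shared reads, was compared for 22 transcripts of 7 members out of 43 transcripts of the 10. The shares of 8 transcripts did not overlap between genotypes (exact two-sided permutation p = 0.1, the smallest possible, and 0.275 after adjustment over the 22). With 3 libraries against 3 no transcript could fall below 0.1, adjusted or not, so this test cannot single out any of them. In Chrnb1, NM_009601.4 held 65.8% ± 2.80 of the gene's TPM in NF-YA cKO and 78.8% ± 3.50 in NF-YA fl/fl (SD, n = 3 each), and XM_006532004.3 held 28.7% ± 2.31 and 15.95% ± 2.70. In absolute terms XM_006532004.3 stayed at 8.99 and 8.43 TPM, while NM_009601.4 was at 20.7 and 42.8 TPM. In Musk, the 7189-nt XM_006537659.2 held 20.6% ± 4.18 in NF-YA cKO and 39.0% ± 6.73 in NF-YA fl/fl, and the 1747-nt NM_001165996.1 held 25.2% ± 1.25 and 17.1% ± 3.98. In Dok7, XM_006503900.2 held 2.22% ± 0.29 and 6.36% ± 0.66. The Chrng transcripts NM_009604.3 and XM_006529078.3 kept shares that overlapped, with 87.5% ± 3.96 and 85.2% ± 4.94 for the first.

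**Figure D4:**
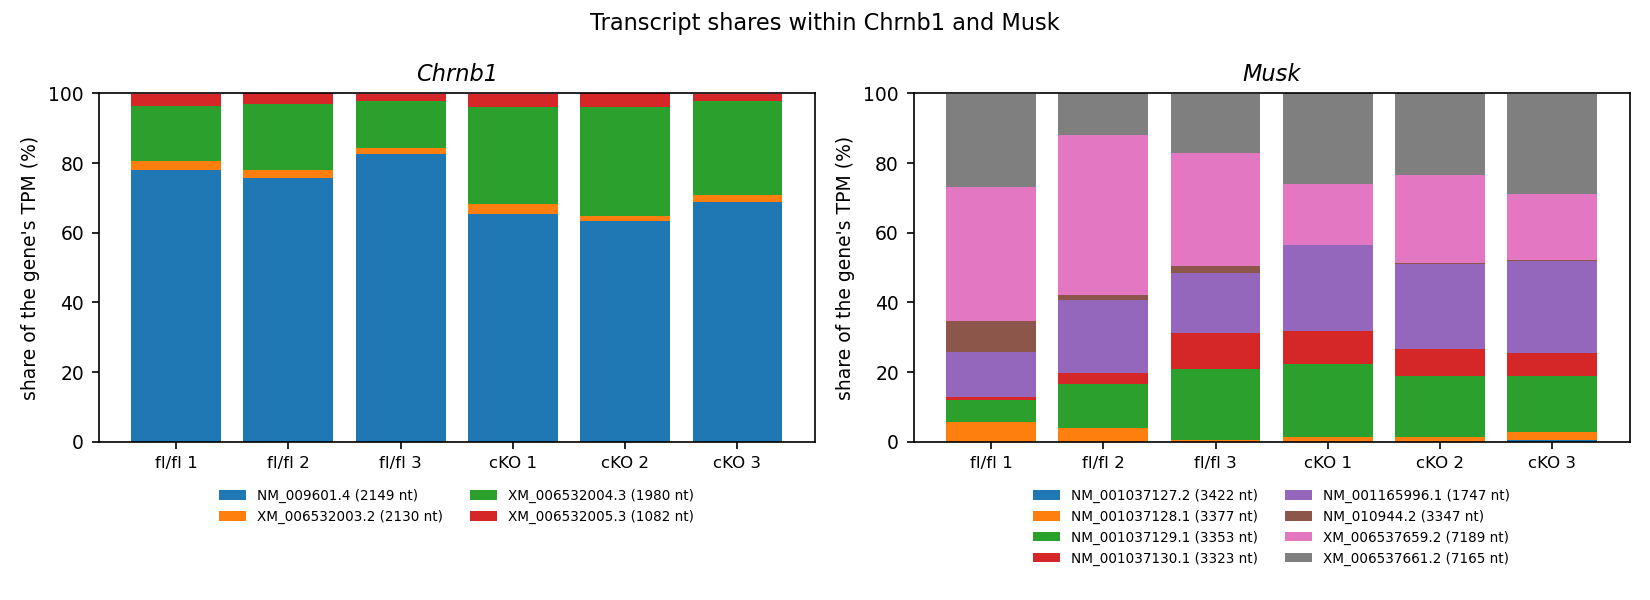
Share of each transcript in the TPM of Chrnb1 and Musk, 1 bar per library, with transcript lengths in the legend. NM_009601.4 fills 63.3% to 68.8% of the NF-YA cKO bars and 75.8% to 82.7% of the NF-YA fl/fl bars.

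The wider set of postsynaptic partners, 35 genes of which 34 were tested, had 16 called lower and 0 higher in edgeR, with a median log2 fold change of -0.96. Over all tested genes, 7.67% were called lower and 4.65% higher. The count of 0 higher was 0 in DESeq2 and in limma, while 4 genes were above 0 at an unadjusted p under 0.05, among them Pak1 and Cttn at log2 fold changes of 0.96 and 0.67. The 6 largest changes were those of Scn4a, the muscle sodium channel (-7.47), Cav3, the muscle caveolin (-6.92), Ache, which breaks down acetylcholine (-4.97), Sntb1, a syntrophin (-4.54), the kinase Prkcq (-4.30) and the kinase Camk2b (-4.07). Ache stood at 0.06, 0.24 and 0.26 CPM in NF-YA cKO and at 8.56, 5.20 and 4.98 CPM in the controls. These changes exceeded the log2 fold change of Chrng, and those of the 4 lower members lay between the medians of all tested genes and of the 9 differentiated muscle markers (-6.67). Without NF-YA cKO replicate 1 or replicate 2, 10 partners were called lower.

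Of 16 regulators of receptor gene transcription, all tested, 7 were called lower and 0 higher in edgeR, beside 7.67% and 4.65% of all tested genes. The 7 were Myog (-5.62), Mef2c (-5.05), Hdac9 (-2.86), Myf6 (-2.81), Mef2a (-1.82), Runx1 (-1.79) and Mef2d (-1.59), of which Myog, Myf6 and the Mef2 genes are activators of muscle genes and Hdac9 is a repressor induced by innervation. Myod1 (-0.08, edgeR FDR 0.908) and Myf5 (0.80, FDR 0.272) were not called. Gabpa, an Ets factor of the N-box, had a log2 fold change of 0.41 with an FDR of 0.00995. The count of 0 higher was 0 also in DESeq2 and limma and 1 without NF-YA fl/fl replicate 3, with 2 genes above 0 at an unadjusted p under 0.05. Without NF-YA cKO replicate 2, 4 regulators were called lower.

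**Figure D5:**
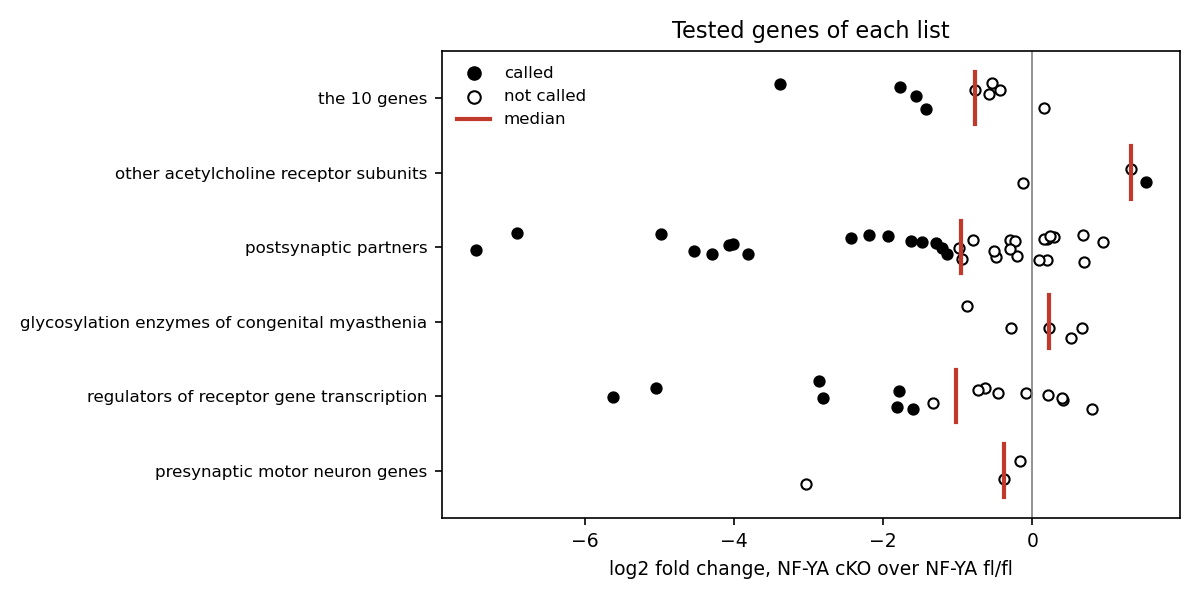
Log2 fold change of NF-YA cKO over NF-YA fl/fl for the tested genes of each list (points, filled where called, spread vertically for visibility) with the list median (red line). The 9 members reach from -3.39 to 0.16 and the 34 postsynaptic partners from -7.47 to 0.96.

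Of 11 other acetylcholine receptor subunits, which belong mostly to neurons, 3 passed the filter. Chrna7, which forms a homomeric receptor also found in macrophages, stood at 2.45, 3.33 and 3.26 CPM in NF-YA cKO and at 1.18, 1.07 and 0.88 CPM in the controls. It was called higher, at a log2 fold change of 1.53 ± 0.24 (SE, edgeR FDR 0.00355), beside 4.65% of all tested genes. Most macrophage and Schwann cell markers and the endothelial marker Kdr were also called higher, and their part in this change was not tested. The call of Chrna7 was lost in limma, in the fit with a replicate block, and without any 1 of the NF-YA cKO libraries or NF-YA fl/fl replicate 1. Chrna2 (1.32, FDR 0.244) and Chrnb2 (-0.12, FDR 0.798) were not called, and Chrna6 and Chrnb3 had 0 counts in all libraries.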

How the data were processed

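Stranded total RNA libraries (75-nt paired reads), 3 per genotype, were sequenced. The labels number them as replicates without saying whether each came from a separate mouse. The authors aligned reads to the mm10 transcriptome with Bowtie2 and made RSEM 1.3.1 expected counts, TPM and isoform percent per library; the deposited expected counts and TPM were used here, and the deposited isoform percent was recomputed from TPM. Expected counts were rounded, filtered and fitted in edgeR 4.0.16 (TMM, quasi-likelihood, genotype only; FDR by Benjamini-Hochberg). Other fits used DESeq2 1.42.0 and limma 3.58.1. Shares and ratios of TPM were compared by exact permutation. The study's own thresholds were kept, with edgeR in place of its DESeq2. Scripts were tested on simulated data. The members and lists were chosen with earlier results of these data known. Named genes were all 10 members, the called genes with the largest change of each pathway list (at most 6 per direction), every tested gene of pathway lists of up to 11 genes, and the 3 genes most like Chrng and Agrn; Mef2d, Pak1, Cttn, Gabpa, Myod1, Myf5 and the single cell type markers were named after their values were seen. Replicates differed beyond sampling noise.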

Additional observations from a re-analysis of the deposited data

How the results depend on the processing

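Over 16 alternatives per member, Chrng was called lower in 16, Lrp4 and Musk in 14 and Chrnd in 12. Tested against a log2 fold change of 1 (glmTreat), Chrnd (-1.55, FDR 0.0497), Lrp4 (-1.78, FDR 0.0362) and Musk (-1.43, FDR 0.0698) lost their calls, leaving 1 member, 10 postsynaptic partners, 3 regulators and 0 other receptor subunits. Leaving out 1 library at a time gave log2 fold changes of -1.74 to -1.35 for Chrnd, -1.98 to -1.53 for Lrp4, -1.63 to -1.32 for Musk, -0.99 to -0.38 for Chrnb1, -0.81 to -0.19 for Rapsn, -0.76 to -0.16 for Dok7, -0.61 to -0.19 for Chrna1 and -0.0199 to 0.56 for Agrn, with 1 to 4 members, 10 to 16 partners and 4 to 8 regulators called lower, 0 to 1 partners, regulators and other subunits called higher, and 0 to 1 presynaptic genes called lower. Limma called 0 other subunits with either added value, and DESeq2 called 1 presynaptic gene lower. The replicate block used numbers shared by title only, and the labels do not say whether they pair samples. Same-number deviations correlated at 0.165, -0.07 and 0.05, which cannot settle whether they do. The fit with this block left 4 members lower and 0 other subunits higher. Pairing by number gave p = 0.25 (exact, the smallest for 3 pairs) for the Chrng to Chrne ratio. That ratio difference was -2.81 to -1.76 without 1 library and -3.09 with 1 TPM added. Transcript shares reversed only without single libraries, ranging over XM_006532003.2 -0.52 to 0.24, XM_006532005.3 -0.0785 to 0.89, NM_009604.3 -0.53 to 4.53, XM_006529078.3 -4.53 to 0.53, NM_021604.3 -2.70 to 10.8, XM_006503898.3 -0.14 to 1.47, NM_009023.3 -0.37 to 1.36 and XM_006499017.3 -1.36 to 0.37 percentage points. The causes were not tested. Chrne alone among the members failed the count filter.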

Other observations

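The 5 glycosylation enzymes whose loss causes congenital myasthenia were all tested, and 0 were called in either direction in edgeR, DESeq2 or limma. With 7.67% of all tested genes called lower and 4.65% higher in edgeR, 0 of 5 does not set them apart. At an unadjusted p under 0.05, 2 were above 0 and 2 below. Their log2 fold changes were -0.87 for Alg2, -0.29 for Gfpt1, 0.23 for Alg14, 0.52 for Dpagt1 and 0.66 for Gmppb, with edgeR FDR values of 0.0964, 0.0476, 0.213, 0.0166 and 0.0511.

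Of 7 presynaptic motor neuron genes, Chat, Slc18a3 and Mnx1 had 0 counts in all libraries. Slc5a7, Syt2 and Isl1 were tested, and 0 were called in edgeR or limma, at log2 fold changes of -3.04, -0.38 and -0.16. With 7.67% of all tested genes called lower and 4.65% higher in edgeR, 0 calls do not set them apart. DESeq2 called 1 lower, and 1 was below 0 at an unadjusted p under 0.05. Slc5a7, the choline transporter, stood at 0.35, 0.10 and 0.23 CPM in NF-YA cKO and at 1.07, 4.25 and 0.17 CPM in the controls, most of it in NF-YA fl/fl replicate 2.

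By the root mean square difference of log2 CPM profiles centred over the 6 libraries, the tested genes most like Chrng were Thpo (0.141), Lman1l (0.145) and LOC108169119 (0.145). Those most like Agrn were Hid1 (0.0588), Sf3a2 (0.0616) and Pigq (0.0677).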
